A study of Sus scrofa with 22 samples.

Results

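The genes described here are 41 cell cycle and proliferation genes, chosen by name, whose transcripts were looked up in cerebellar RNA of piglets. Of the 41, 36 had a row in the count tables, out of 31907 gene rows in all, and 34 passed the count filter and were tested. The other 5 listed genes (MKI67, PCNA, RRM2, CCNA2 and AURKA) were not matched to a row by symbol and were not analysed here. MCM5 had 0 counts in 22 of 22 libraries, which allows at most 3 counts in any of them (up to 0.200 CPM, the counts of a gene scaled to a library of fixed size). PRC1 had between 1 and 9 counts per library and was left out of the tests by the filter. These bounds hold for reads assigned to the gene models: RefSeq places MCM5 on no chromosome of this build, whether reads of MCM5 or PRC1 were lost in mapping or counting was not tested, and neither value is read here as a level of expression.

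All 22 animals were neonatal pigs (Sus scrofa) operated on at 8 days of age and followed for 3 weeks. In 11 animals (7 female, 4 male) the bile duct was tied off (bile duct ligation, BDL), which stops bile from leaving the liver, and 11 (5 female, 6 male) had a sham operation (SHAM). The labels name no strain and no further treatment, and they do not tie animals to litters. The cerebellum was sequenced as bulk tissue, so that fewer cycling cells and less cell cycle RNA per cell cannot be told apart.

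A dividing cell passes from G1, in which D and E cyclins and their kinases release the E2F transcription factors, into S phase, in which the MCM helicase opens the DNA for copying, and then into mitosis, which runs on CDK1, B cyclins, mitotic kinases and the proteins of chromosomes and spindle. In the cerebellum of newborn mammals most dividing cells are granule cell precursors of the external granular layer, which multiply after birth, leave the cycle and move inward to become granule neurons. Glial precursors, microglia and vessel cells also divide at this age. D cyclins and inhibitors such as CDKN1B are also made by cells that no longer divide.

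Libraries held between 14811464 and 20046909 gene counts. Values are CPM scaled by the trimmed mean of M values (TMM), and a level is compared only with the level of the same gene in other animals, since transcript lengths were not used. Markers of the tissue were present: the 8 markers of postmitotic granule cells (such as CBLN1, GABRA6 and SLC17A7) summed to between 4462 and 5855 CPM in every animal.

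Transcripts of cell cycle genes were detected in every cerebellum at the end of the follow-up: the 34 tested members had between 24 and 3671 counts in each library. TOP2A, the topoisomerase that untangles chromosomes and is made in S phase and mitosis (chromosome 12, 22001300 to 22028452 on Sscrofa11.1), ran from 22.3 CPM in SHAM replicate 9 to 58.1 CPM in SHAM replicate 4, a 2.61-fold range. CENPF, a kinetochore protein of G2 and mitosis, ran from 16.6 to 42.3 CPM between the same animals. The ratio of the highest to the lowest animal was 1.97 at the median over the members, lowest for CDKN1B (1.32) and highest for CENPE (4.95).

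The comparison of BDL with SHAM asked whether proliferation transcripts differed when bile flow had been blocked. No member passed the test. The members split into 18 on the higher side (50.3% of all genes were) and 16 on the lower side in BDL, with a median log2 fold change of 0.0092 (0.0006 over all genes). The difference and its 95% confidence interval stayed within 1.5-fold for 34 of 34 members, beside 87.1% of all genes, and within 1.25-fold for 18 of 34 (52.9%), beside 63.6% of all genes. edgeR's quasi-likelihood test called 0 of 34 members at an adjusted p under 0.05 and 0% of the 14994 genes tested. At an unadjusted p under 0.05 it had 1 of 34 members, with 4.96% of all genes as background. DESeq2 and limma-voom also called 0 members, each with 1 at an unadjusted p under 0.05. The values of the groups overlapped for 34 of 34 members. The share over all genes was not taken, so this count does not set the members apart. The p-values measure the spread between these animals, which the labels give as separate samples.

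**Figure D1:**
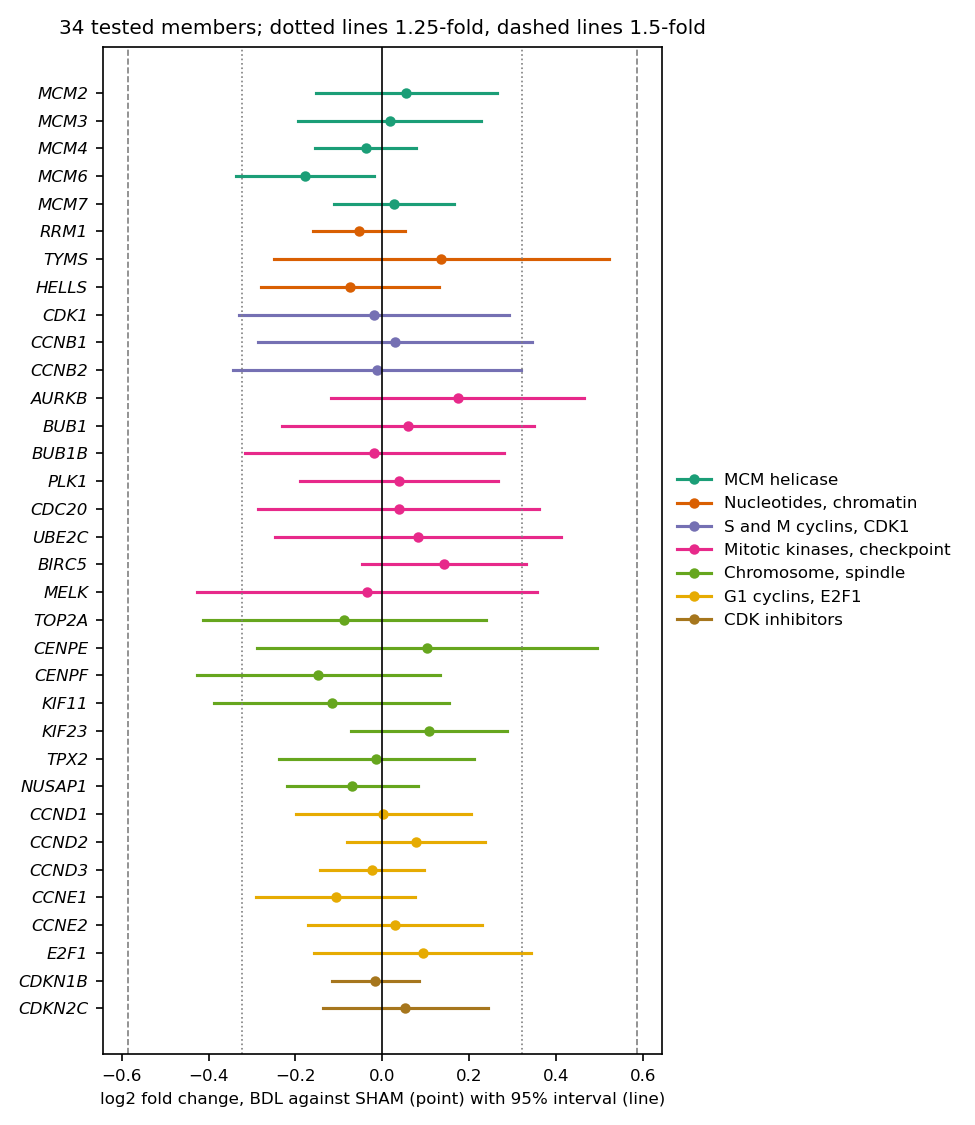
The log2 fold change of BDL against SHAM (x axis; points, edgeR) with its 95% confidence interval (lines) for the 34 tested members (y axis), coloured by role, with dotted lines at 1.25-fold and dashed lines at 1.5-fold in either direction. All 34 intervals lie between the dashed lines, and the interval of MCM6 is the 1 that does not include 0.

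Among the genes of DNA replication, 5 of the 6 MCM subunits, which together form the helicase, were tested, with 3 on the higher and 2 on the lower side. MCM6 (chromosome 15, 15923638 to 15978587) had the smallest p of all members. It ran from 72.2 to 117 CPM in BDL (median 103) and from 91.3 to 128 CPM in SHAM (median 119). The groups overlapped, but 9 of 11 BDL animals were below the SHAM mean (99.1 ± 14.0 and 113 ± 12.9 CPM, mean ± SD, n = 11 each; log2 fold change -0.18 ± 0.08 SE, edgeR adjusted p = 0.881). For the other MCM subunits the differences were nearer to 0. MCM2 lay at 16.3 to 28.0 CPM in BDL (median 21.6) and 16.8 to 29.3 in SHAM (median 22.2), with a log2 fold change of 0.06 ± 0.10, and MCM3, MCM4 and MCM7 were at 0.02, -0.04 and 0.03.

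Of the genes that supply or package new DNA, RRM1, the large subunit of ribonucleotide reductase, ran from 99.2 to 132 CPM in BDL (median 112) and from 102 to 129 in SHAM (median 118), with 9 of 11 BDL animals below the SHAM mean (log2 fold change -0.05 ± 0.05). TYMS, which makes thymidylate, varied more between animals, from 3.59 to 11.8 CPM in BDL and from 4.45 to 8.42 in SHAM (0.14 ± 0.19). HELLS, a chromatin remodeller of dividing cells, was at -0.07 ± 0.10.

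The S and M phase cyclins and their kinase had 1 of 3 on the higher side. CDK1, the kinase that drives entry into mitosis, lay at 3.86 to 6.05 CPM in BDL (median 4.53) and 3.03 to 8.55 in SHAM (median 4.91), and the SHAM animals held both the lowest and the highest value (log2 fold change -0.02 ± 0.15). CCNB1, its partner cyclin, lay at 2.97 to 6.65 CPM in BDL (median 5.20) and 3.45 to 6.39 in SHAM (median 4.68), at 0.03 ± 0.15. CCNB2 was at -0.01 ± 0.16.

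Of the 8 tested mitotic kinases, checkpoint proteins and factors of anaphase ubiquitination, 6 were on the higher and 2 on the lower side, with a median of 0.05. BIRC5 (survivin, of the chromosomal passenger complex) had the smallest p of these, from 8.78 to 12.05 CPM in BDL (median 10.4) and 7.12 to 12.2 in SHAM (median 9.71), and 8 of 11 BDL animals exceeded the mean of SHAM (log2 fold change 0.14 ± 0.09, edgeR adjusted p = 0.881). AURKB, the kinase of the same complex, was at 0.17 ± 0.14. PLK1, CDC20, UBE2C, BUB1, BUB1B and MELK lay between -0.04 and 0.08.

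The chromosome and spindle genes had 2 of 7 on the higher side and a median of -0.07. TOP2A lay at 23.4 to 45.4 CPM in BDL (median 30.8) and 22.3 to 58.1 in SHAM (median 35.2), and 4 of 11 BDL animals were above the SHAM mean (log2 fold change -0.09 ± 0.16, edgeR adjusted p = 0.940). KIF23, a kinesin of cytokinesis, had the smallest p of this role, from 8.44 to 12.7 CPM in BDL (median 11.8) and 7.60 to 12.7 in SHAM (median 10.7; 0.11 ± 0.09). CENPE, a kinetochore motor, was at 0.10 ± 0.19 with 1 BDL animal far from the others: BDL replicate 2 had 14.8 CPM, and without it the log2 fold change was -0.09. CENPF was at -0.15 ± 0.14, and KIF11, TPX2 and NUSAP1, all spindle proteins, at -0.12, -0.01 and -0.07.

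The G1 genes split into 4 higher and 2 lower. Of the D cyclins, which link growth signals to the cycle, CCND1 ran from 31.1 to 46.8 CPM in BDL (median 39.2) and 27.7 to 56.1 in SHAM (median 39.2), at 0.002 ± 0.10. CCND2 ran from 31.0 to 44.3 CPM in BDL (median 38.1) and 28.7 to 45.2 in SHAM (median 34.5), at 0.08 ± 0.08, and CCND3 from 61.1 to 83.4 (median 67.1) and 58.8 to 79.4 (median 68.2), at -0.02 ± 0.06. For each D cyclin the groups covered much the same range. CCNE1, which acts at the entry to S phase, had the smallest p of this role, with 9.31 to 13.8 CPM in BDL (median 10.8) and 8.87 to 14.7 in SHAM (median 12.1), and 8 of 11 BDL animals lay under the mean of SHAM (-0.11 ± 0.09). CCNE2 and the transcription factor E2F1 were at 0.03 ± 0.10 and 0.09 ± 0.12.

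Of the 2 cyclin-dependent kinase inhibitors 1 was on either side. CDKN1B (p27, chromosome 5, 59731224 to 59735831), which holds postmitotic neurons out of the cycle, ran from 150 to 194 CPM in BDL (median 171) and 156 to 197 in SHAM (median 173), at -0.02 ± 0.05. CDKN2C (p18), an inhibitor of the kinases of the D cyclins, ran from 10.4 to 17.5 CPM in BDL (median 13.8) and 11.8 to 16.3 in SHAM (median 12.7), at 0.05 ± 0.09.

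**Figure D2:**
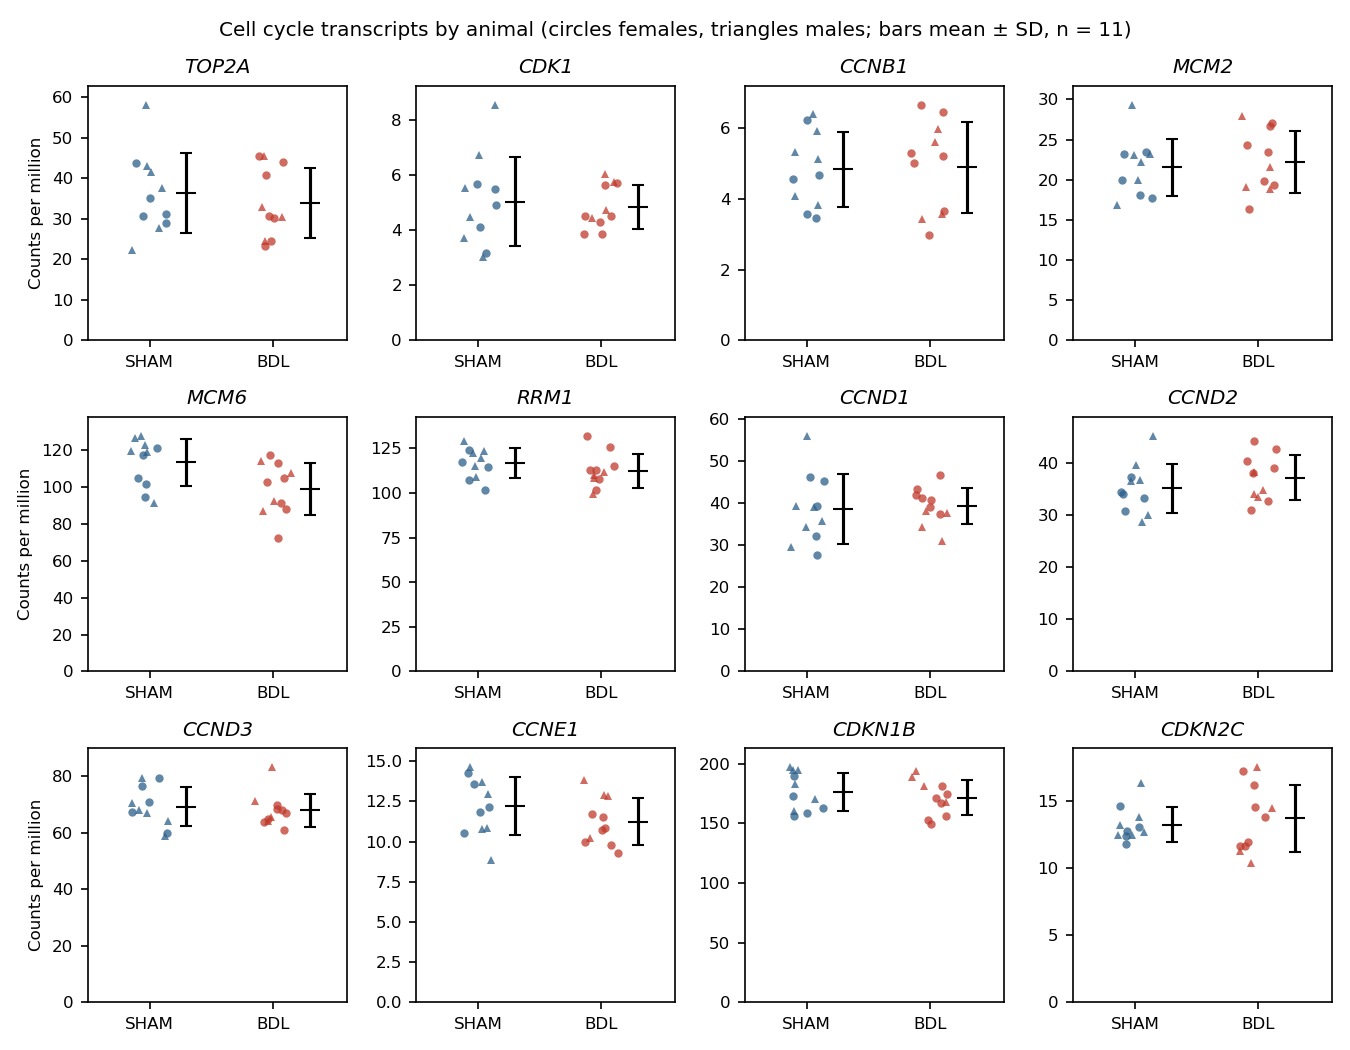
CPM (y axes, from 0) of 12 members in each SHAM and BDL animal (x axes; circles females, triangles males), with the mean ± SD of 11 animals per group as bars. The ranges overlap in every panel, and the highest TOP2A value, 58.1 CPM, belongs to SHAM replicate 4.

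A further list of 85 cell cycle genes that are not members was read in the same way. Of these, 80 had a row and 77 were tested, with 32 higher, 45 lower, a median of -0.02, 0 past the adjusted threshold (edgeR) and 1 at an unadjusted p under 0.05. The smallest p belonged to ORC1, a subunit of the complex that marks replication origins, with 6.07 to 9.15 CPM in BDL and 4.97 to 7.01 in SHAM, and 11 of 11 BDL animals exceeded the mean of SHAM (log2 fold change 0.20 ± 0.09, edgeR adjusted p = 0.881). INCENP, a scaffold of the chromosomal passenger complex, was at 0.12 ± 0.06 and DUT, which clears dUTP, at 0.15 ± 0.08. CDK6, a kinase of the D cyclins, was at -0.25 ± 0.13.

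Markers of the cell types that could carry these transcripts did not pass the test either. Granule cell precursor and Hedgehog markers had 4 of 10 higher (median -0.04). ZIC1, the most abundant, was at -0.02, and PTCH1, the Hedgehog receptor, at -0.12 ± 0.07. Their summed level was 880 to 1159 CPM in BDL and 958 to 1212 in SHAM. Most of this sum was ZIC1, at 533 to 788 CPM over all animals, and the sum is not read as a level of precursors. ATOH1, the transcription factor that defines granule cell precursors, was at 2.86 to 6.21 CPM in BDL and 2.29 to 7.72 in SHAM (0.13 ± 0.20). Postmitotic granule cell markers had 3 of 8 higher (median -0.02; GABRA6 -0.10 ± 0.05), oligodendrocyte precursor markers 4 of 6 higher (median 0.07; 260 to 637 CPM in BDL and 298 to 632 in SHAM) and microglia markers 1 of 5 higher (median -0.04; 69.9 to 151 and 83.8 to 153 CPM). Endothelial and mural markers had 1 of 6 higher (median -0.02; RGS5, a pericyte gene, -0.25 ± 0.09, edgeR adjusted p = 0.881). Markers of mature oligodendrocytes had 5 of 5 higher (median 0.19) with a wide spread, from 4732 to 27273 CPM in BDL and 6775 to 23909 in SHAM. OLIG1 and SOX10 of the precursor list were lowest in the animal lowest in MBP, a myelin gene (BDL replicate 2, at 115, 43.2 and 2600 CPM). In BDL replicate 11 the same genes stood at 298, 143 and 13556 CPM. The precursor list is therefore not read, here or below, as a measure of precursors alone. Blood cell markers had 5 of 5 higher (median 0.15, 11.6 to 26.2 and 9.13 to 22.3 CPM). Astrocyte and Bergmann glia markers had 1 of 6 higher (median -0.09, lowest -0.33, 3590 to 6725 and 4618 to 7352 CPM). Meninges and choroid plexus markers had 0 of 5 higher (median -0.06, LUM -0.35 ± 0.17, 178 to 1739 and 198 to 1055 CPM). TTR, the most abundant of this list, alone ran from 1.67 CPM in SHAM replicate 1 to 1395 CPM in BDL replicate 4, and set most of the width of these ranges. The part of any of these cell types in the members' levels was not tested.

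The sexes and body weight were compared in the same animals. Between females and males, 16 of 34 members were on the higher side in females (49.6% of all genes were), 0 passed the edgeR test (0.06% of all genes did) and 1 had an unadjusted p under 0.05, beside 5.95% of all genes. That member was CDKN1B, whose mean was 165 ± 12.1 CPM in BDL females (n = 7) and 183 ± 11.5 in BDL males (n = 4), and 168 ± 13.7 in SHAM females (n = 5) and 183 ± 15.02 in SHAM males (n = 6). The female mean was below the male mean under either surgery, the ranges of the sexes overlapped, and the difference did not pass after adjustment (log2 difference, female minus male, -0.14 ± 0.05, edgeR adjusted p = 0.743). E2F1 was at 0.20 ± 0.12 and TYMS at -0.25 ± 0.19 between the sexes.

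Body weight ran from 1620 to 2560, in a unit that the labels do not give. Per SD of body weight, 21 of 34 members had a slope above 0 (50.3% of all genes did), 0 passed the edgeR test (0% of all genes did) and 1 had an unadjusted p under 0.05 (7.39% of all genes). The slope of CCND1 was 0.11 ± 0.05 on the log2 scale (edgeR adjusted p = 0.671), CCNE1 was at -0.09 ± 0.05 and CDKN2C at 0.08 ± 0.05. TOP2A was at 0.10 ± 0.09.

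The interaction asked whether BDL differed from SHAM in another way in females than in males. Within females 24 of 34 members were higher in BDL, and within males 7 of 34, where the shares over all genes were 50.5% and 47.5%. The difference between the sexes was above 0 for 28 of 34 members, beside 51.5% of all genes, and 0 members passed the edgeR test (0% of all genes; 1 member and 4.6% of all genes at an unadjusted p under 0.05). Of the 77 other cell cycle genes tested, 52 were above 0 (67.5%, median 0.08, where the members had 82.4% and 0.17), and 0 passed. Within females 46 of these 77 were higher in BDL, and within males 21. The members are not independent of each other, since many were correlated across animals. The count of 28 was 22 without SHAM replicate 4, a male with high values, and between 25 and 30 without any other animal. E2F1 had the smallest p, with 12.1 ± 1.75 CPM in BDL females and 9.75 ± 2.16 in SHAM females against 8.79 ± 0.79 in BDL males and 9.99 ± 2.20 in SHAM males (difference of log2 fold changes 0.50 ± 0.22, edgeR adjusted p = 0.917). RRM1 was at 0.19 ± 0.10 and TPX2 at 0.37 ± 0.21. Markers of some glial cells had the other sign: the difference between the sexes was above 0 for 0 of 6 oligodendrocyte precursor markers (median -0.43), 0 of 5 mature oligodendrocyte markers (median -0.80) and 0 of 5 microglia markers (median -0.44). It was above 0 for 2 of 6 astrocyte and Bergmann glia markers (median -0.07) and for 6 of 10 granule cell precursor markers (median 0.04). Meninges and choroid plexus markers had the members' sign, with 5 of 5 above 0 (median 0.22). The counts were 3 of 5 for blood cell (0.32), 3 of 6 for endothelial and mural (0.06) and 2 of 8 for postmitotic granule cell markers (-0.05). The part of tissue makeup in the members' count was not tested.

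High and low values of many members fell in the same animals. SHAM replicate 4, a male, held the highest value of 18 of the 34 members, and SHAM replicate 9, also a male, held the lowest value of 9, followed by BDL replicate 8, a female, with the lowest value of 7. The share of all genes with their highest or lowest value in these animals was not taken, so these counts do not set the members apart. In the plot of all members by animal, the mitotic and replication genes changed together from the animals low in TOP2A to those high in it, with BDL and SHAM animals intermixed, while the G1 genes and inhibitors did not follow this order as closely.

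**Figure D3:**
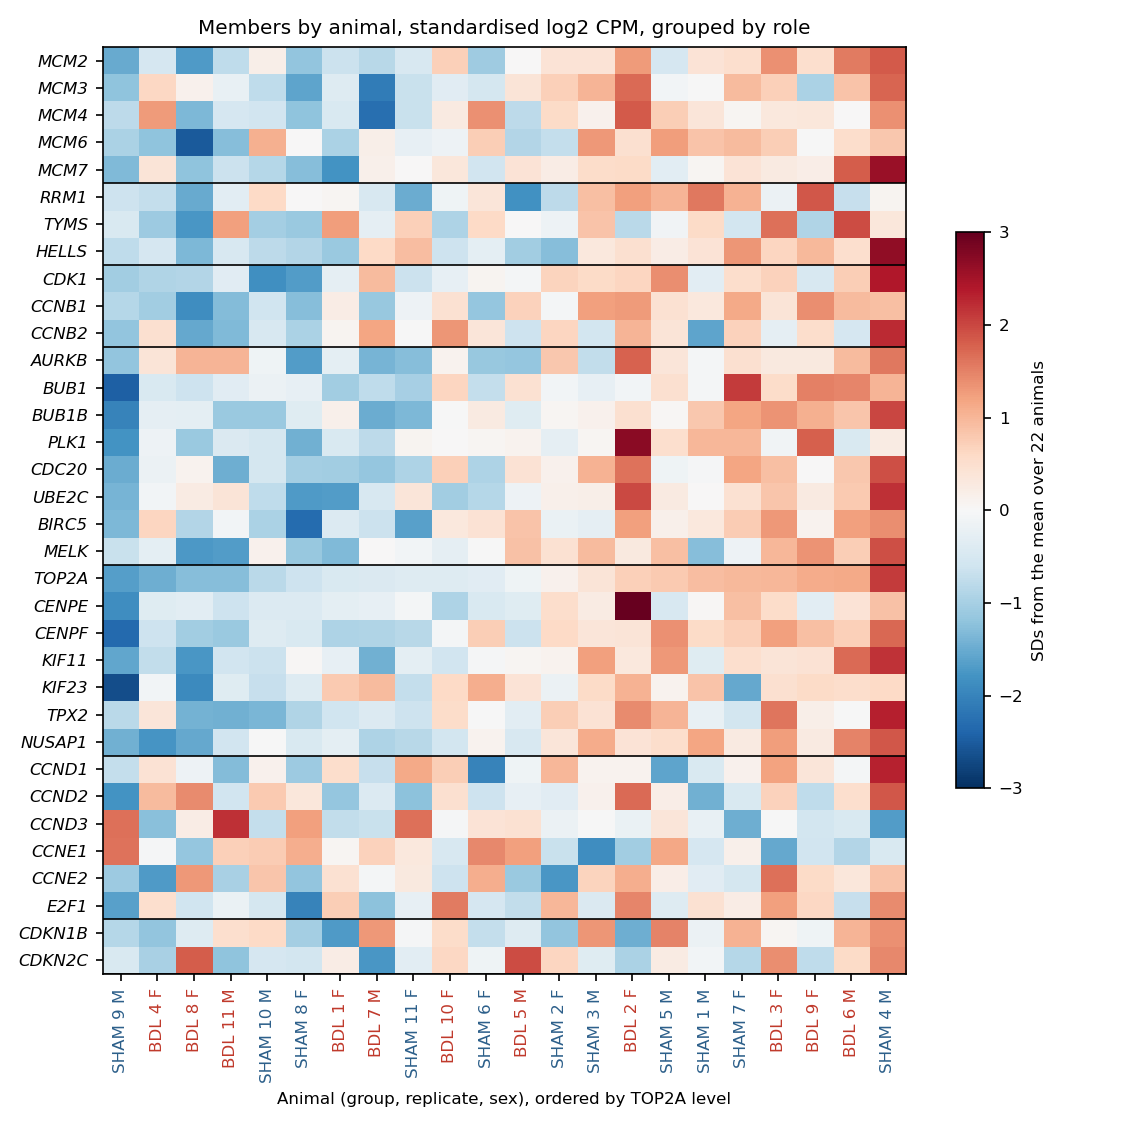
Each member's log2 CPM (rows, grouped by role) in each of the 22 animals (columns, ordered from the lowest to the highest TOP2A; red labels BDL, blue labels SHAM, with replicate and sex), as SDs from that gene's mean over all animals. The rows from MCM2 to NUSAP1 turn mostly from blue to red from left to right, CCND3 turns the other way, and both surgeries are found at both ends.

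TOP2A was set against the 33 other tested members, 56 tested marker genes and 4 measures of the animals or libraries over the 22 animals, 93 relations in all, with p-values by permutation and adjusted over the 93. TOP2A was chosen as the reference gene after its correlations had been seen, and all points share their libraries with TOP2A. Of the 33 members, 31 had a positive r with a median of 0.62, and 19 passed the adjusted threshold. For these relations, a gene is counted as passing by the adjusted p of r, not of rho. An r above 0.5 was found for 20 of 33 members and 34 of 77 other cell cycle genes, beside 5.86% of the 14993 other genes tested. The strongest was NUSAP1, a microtubule-binding protein of the spindle (Pearson r = 0.89, permutation p = 1.0e-05, the smallest that 100000 resamples can give, adjusted p = 0.000155; Spearman rho = 0.88, p = 1.0e-05, adjusted p = 0.000232). For NUSAP1 r was 0.90 within BDL, 0.89 within SHAM, and 0.85 without SHAM replicates 4 and 9, the 2 animals farthest from the median of TOP2A.

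The relation was found in several, not all, genes of S phase and mitosis. CENPF had r = 0.88 (rho = 0.86), BUB1B, a spindle checkpoint kinase, 0.84 (rho = 0.83), KIF11, a spindle motor, 0.83 (rho = 0.86) and MCM2 0.81 (rho = 0.81), each with a permutation p of 1.0e-05 and an adjusted p of 0.000155 for r. By role, 4 of 5 MCM subunits, 2 of 3 S and M phase cyclins and their kinase, 7 of 8 mitotic kinases and checkpoint genes and 5 of 6 chromosome and spindle genes passed. MCM4 was under the threshold by rho only (rho = 0.52, adjusted permutation p = 0.0461, and r = 0.48, adjusted permutation p = 0.0671). Of the genes that supply or package new DNA 1 of 3 passed, HELLS, while RRM1 (r = 0.50, adjusted permutation p = 0.0594) and TYMS (r = 0.34, adjusted permutation p = 0.21) did not. The count was 0 of 6 for G1 genes and 0 of 2 for inhibitors. All 19 members that passed kept a positive r within BDL (0.22 to 0.90), within SHAM (0.55 to 0.92), and without SHAM replicates 4 and 9 (0.36 to 0.85). With the threshold applied again, 7 of the 19 passed within BDL, 17 within SHAM, each with 11 animals, and 15 without SHAM replicates 4 and 9. Within the 12 females 6 of the 19 passed (r from 0.28 to 0.89). Within the 10 males, who include SHAM replicates 4 and 9, 15 of the 19 did (r from 0.64 to 0.96).

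None of the G1 genes passed. CCND1 had r = 0.39 (rho = 0.30) and CCND2 r = 0.23 (rho = 0.12), with permutation p = 0.0757 and 0.311 and adjusted p = 0.141 and 0.401 for r. For CCND2 r was -0.15 without SHAM replicates 4 and 9. CCND3 had a negative r of -0.50 (permutation p = 0.0175, adjusted p = 0.0594; rho = -0.35, p = 0.114, adjusted p = 0.216), which was -0.30 without SHAM replicates 4 and 9, -0.24 within BDL and -0.75 within SHAM. CCNE1 had r = -0.44 (permutation p = 0.039, adjusted p = 0.0929; rho = -0.43, p = 0.0474, adjusted p = 0.13). CDKN1B had r = 0.42 (permutation p = 0.056, adjusted p = 0.113; rho = 0.43, p = 0.0495, adjusted p = 0.131).

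**Figure D4:**
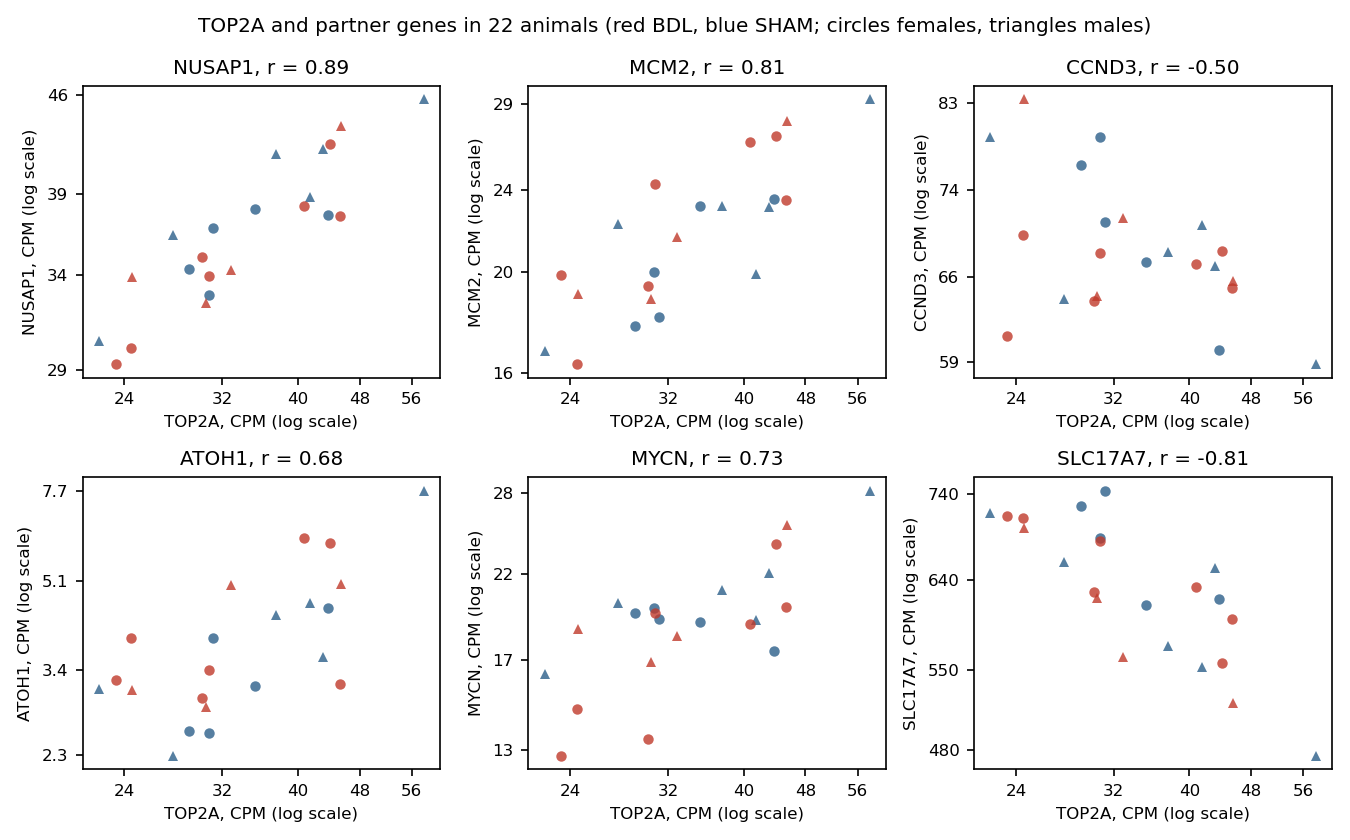
TOP2A (x axes, CPM on a log scale) against 3 members and 3 granule cell genes (y axes, CPM on a log scale) in the 22 animals (red BDL, blue SHAM; circles females, triangles males), with Pearson r of log2 CPM above each panel. NUSAP1, MCM2, ATOH1 and MYCN rise with TOP2A (r from 0.68 to 0.89), CCND3 and SLC17A7 fall (r = -0.50 and -0.81), and the SHAM male at 58.1 CPM of TOP2A lies at the end of each panel.

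Among the 56 cell type markers 5 passed, 4 of them from the 2 lists of the granule cell lineage, which hold 10 and 8 of the 56. By rho, GABRD, CBLN1 and GPR17 also had an adjusted permutation p under 0.05 (values below). Of the 14993 other genes tested, 5.86% had an r above 0.5 and 6.18% an r below -0.5. These shares use a cut on r, not the adjusted p. Beside them the count of 5 does not set the markers apart as a set. ATOH1 had r = 0.68 (permutation p = 0.00042, adjusted p = 0.00244; rho = 0.67, p = 0.00062, adjusted p = 0.00422), and r was 0.58 within BDL, 0.82 within SHAM and 0.59 without SHAM replicates 4 and 9. The animal highest in TOP2A had 7.72 CPM of ATOH1, and the lowest, SHAM replicate 9, had 3.11. MYCN, a transcription factor that keeps granule cell precursors dividing under Hedgehog signalling, had r = 0.73 (permutation p = 0.00011, adjusted p = 0.00093; rho = 0.67, p = 0.00094, adjusted p = 0.00486), with 0.78 within BDL, 0.70 within SHAM and 0.64 without the same 2 animals. The Hedgehog target GLI1 did not pass (r = -0.16, rho = -0.16, adjusted permutation p = 0.548), and 2 of 10 markers of this list passed. The list was split, with 5 of 10 markers at a negative r (GLI1, HHIP, SFRP1, BARHL1 and ZIC1, the lowest at -0.26) and a median of 0.09.

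Of the markers of postmitotic granule neurons, 2 of 8 passed, both with a negative r. GABRD and CBLN1 were under the threshold by rho only. GABRD had rho = -0.59 (adjusted permutation p = 0.0171) and r = -0.49 (adjusted permutation p = 0.0594). CBLN1 had rho = -0.53 (adjusted permutation p = 0.0392) and r = -0.51 (adjusted permutation p = 0.0594). SLC17A7, the vesicular glutamate transporter of granule neurons, had r = -0.81 (permutation p = 1.0e-05, adjusted p = 0.000155; rho = -0.79, p = 3.0e-05, adjusted p = 0.000399), with -0.83 within BDL, -0.82 within SHAM and -0.72 without SHAM replicates 4 and 9. It was lowest, at 475 CPM, in SHAM replicate 4 and stood at 717 CPM in SHAM replicate 9. GRM4, a glutamate receptor of granule cells, had r = -0.55 (permutation p = 0.00833, adjusted p = 0.0337; rho = -0.55, p = 0.00836, adjusted p = 0.0324), and 7 of the 8 markers had a negative r, with GABRA6 at -0.06 (rho = -0.09, adjusted permutation p = 0.837), which was 0.20 without SHAM replicates 4 and 9.

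None of the other cell types' lists had more than 1 marker that passed. The count was 0 of 6 oligodendrocyte precursor, 0 of 5 microglia, 0 of 6 endothelial and mural and 0 of 5 blood cell markers, with median r of -0.40, -0.17, 0.11 and -0.14, and 0 of 5 mature oligodendrocyte and 0 of 6 astrocyte and Bergmann glia markers (-0.34 and 0.18). GPR17 of the oligodendrocyte precursor list was under the threshold by rho only (rho = -0.52, adjusted permutation p = 0.0496, and r = -0.49, adjusted permutation p = 0.0649). Of the meninges and choroid plexus markers, LUM, a collagen-binding protein of meningeal fibroblasts, was the 1 of 5 that passed (r = 0.65, permutation p = 0.00073, adjusted p = 0.00377; rho = 0.56, p = 0.0078, adjusted p = 0.0315; 0.72 within BDL, 0.60 within SHAM and 0.56 without SHAM replicates 4 and 9). The part of tissue makeup in the relations of TOP2A was not tested.

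Measures of the libraries and animals did not pass. TOP2A had r = -0.36 with the animal number in the sample titles (rho = -0.33, adjusted permutation p = 0.186 and 0.229). For the animal number r was -0.68 within males and -0.10 within females. With body weight r was 0.19 (rho = 0.22, adjusted permutation p = 0.478 and 0.451), at 0.62 within males and -0.00058 within females. With total gene counts it was -0.29 (rho = -0.32, 0.278 and 0.243) and with the share of reads in no gene 0.13 (rho = 0.02, 0.654 and 0.915).

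**Figure D5:**
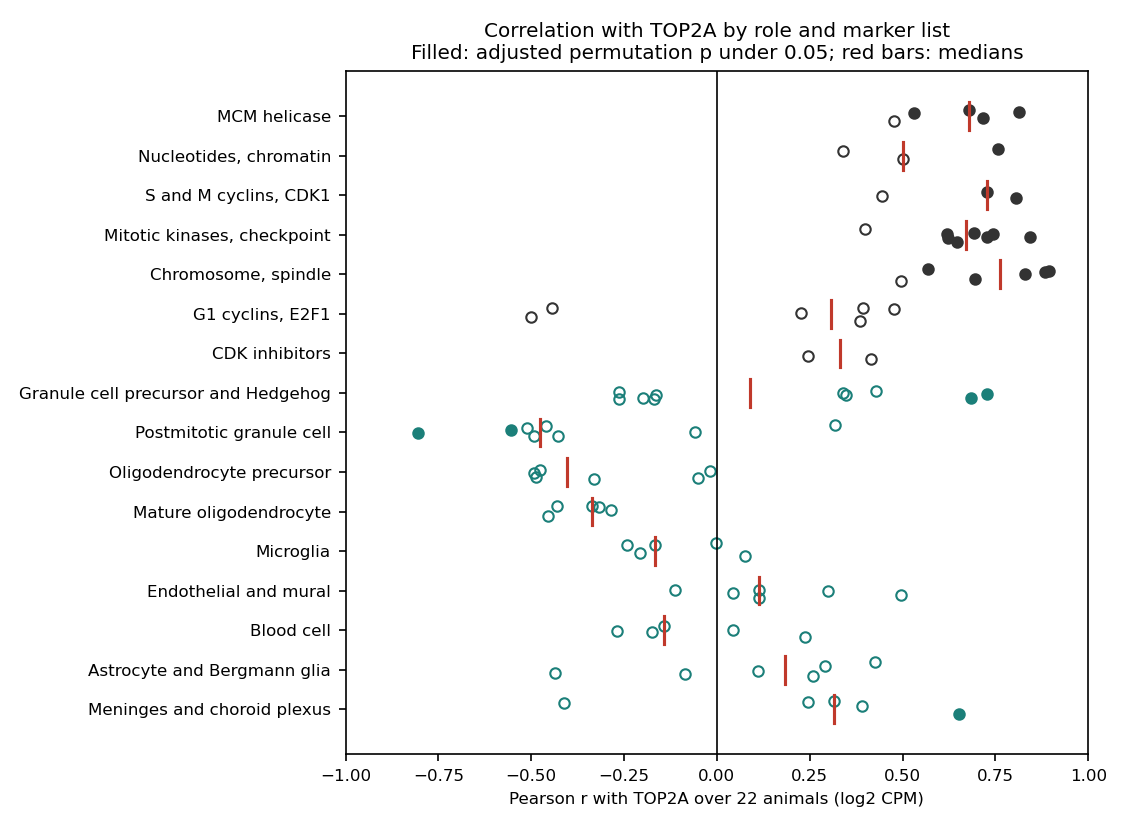
Pearson r with TOP2A over 22 animals (x axis) for each member by role (black) and each marker by cell type list (green), filled where the adjusted permutation p of r was under 0.05, with the median of each list as a red bar. The replication and mitosis roles lie to the right (medians from 0.50 to 0.76), and the postmitotic granule cell list has a median of -0.48.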

How the data were processed

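RNA of 22 cerebella was sequenced, and the authors deposited 1 table of whole-number read counts per Ensembl gene and animal, not normalized. Trim Galore, HISAT2, HTSeq, DESeq2 and the build Sscrofa11.1 stand in the submitters' processing notes; their versions and the strand setting: not given in the sources used here. Lines that belong to no gene held between 29.9% and 34.6% of reads and were left out. Symbols were taken from a gene name table (15029 of 31907 rows matched), and positions from RefSeq for the same build. Genes were kept by filterByExpr (minimum count 10, minimum total 15; 14994 genes) and scaled by TMM, and edgeR 4.0.16 (R 4.3.3) fitted sex and treatment over all animals, with a model of the 4 sex and treatment groups for the interaction. P-values were adjusted by Benjamini-Hochberg over all genes, with a threshold of 0.05. DESeq2 1.42.0 and limma 3.58.1 were alternatives, and the edgeR fit was tested on simulated data. Log2 CPM used 0.5 added to each CPM. The members and gene lists were chosen with earlier results of these data known. Genes named by rule were 10 set members, in each role the member with the smallest p, and 4 other cell cycle genes. The 3 members with the smallest p for sex, body weight and interaction were named too. From each marker list the rule picked the most abundant and that with the smallest p. Of these, CSPG4, MAG, CSF1R, AIF1, CLDN5, PTPRC, CD2, GFAP and SLC1A2 are not described above. ATOH1, SOX10, the correlation partners and further members were named beyond the rule. Correlations were planned around MKI67; TOP2A, its partners and the subsets of animals were chosen after values had been seen. Replicate numbers follow the order of the samples and pair no animals.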

Additional observations from a re-analysis of the deposited data

Results flagged for a closer look

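Each member was looked at within the 4 groups of surgery and sex, and in 9 of 136 such groups 1 animal stood far from the rest by Dixon's ratio. Chance alone gives this in about 1 of 20 groups. SHAM replicate 4 was the highest of 6 SHAM males for HELLS (14.06 CPM, next 10.06), UBE2C (13.01, next 7.989), CCND1 (56.07, next 39.35) and CDKN2C (16.32, next 13.81). SHAM replicate 9 was the lowest of these males for MCM6, with 91.34 CPM and 118.8 in the next. Among BDL females, CENPE was at 14.84 CPM in BDL replicate 2 (next 6.299) and KIF23 at 8.44 CPM in BDL replicate 8 (next 10.86). BUB1 was at 5.422 CPM in SHAM replicate 7 (next 3.452 among SHAM females), and NUSAP1 at 43.67 CPM in BDL replicate 6 (next 34.31 among BDL males).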

How the results depend on the processing

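No member passed in the comparisons of surgery, sex, body weight and interaction under any of the alternatives run for each. No paired analysis was possible because the labels give no replicate numbers shared between the groups. Leaving out 1 animal moved the number of members higher in BDL between 12 (without SHAM replicate 8) and 23 (without SHAM replicate 4), their median log2 fold change between -0.02 and 0.05, and the number with an interval inside 1.5-fold between 33 and 34; the smallest adjusted p of a member ran from 0.712 to 0.992. Over all genes DESeq2 called 1 for surgery, 23 for sex and 8 for body weight, and without the count filter 31 passed for sex. Without 1 animal the count for sex ran from 7 to 26 and that for body weight from 0 to 9. The count for body weight was 9 without SHAM replicate 1 and 3 without BDL replicate 4. Some differences between BDL and SHAM that did not pass changed sign. In females alone TOP2A was at 0.0056 and RRM1 at 0.031. In males alone MCM2 was at -0.035, CCND1 at -0.15, CCND2 at -0.040, CCND3 at 0.066, CCNE1 at 0.053, CDKN2C at -0.0061 and CCNB1 at -0.13. CDK1 was at 0.028 with limma-voom. Without 1 animal CDK1 ran from -0.077 to 0.060, CCND1 from -0.052 to 0.062, CCND3 from -0.066 to 0.0062, CDKN1B from -0.035 to 0.0077, CDKN2C from -0.0070 to 0.098 and CCNB1 from -0.023 to 0.091. Of the named correlations with TOP2A, r changed sign within females for CCND2 (-0.18), GLI1 (0.037), GABRA6 (0.23) and body weight (-0.00058), without SHAM replicates 4 and 9 for CCND2 (-0.15) and GABRA6 (0.20), and within BDL for the share of reads in no gene (-0.022); none of these had passed over all animals. The cause was not tested. The planned correlations of MKI67 were not run, since that gene was not matched. Some members had few counts per library, with 57 to 155 for CDK1, 24 to 77 for MELK and 27 to 83 for CCNB2. BUB1 (37 to 95) and CCNB1 (52 to 115) were as low. The part of counting noise in their values was not tested.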

Other observations

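Beyond the fixed lists, all 14993 other tested genes were ranked by r with TOP2A over the 22 animals, as a description without p-values, and the genes named here were chosen after their values were seen. Of the 100 genes with the highest r, 11 were members and 15 were other cell cycle genes, and of the 100 with the lowest r, 0 were either. Near the top stood further genes of dividing cells, such as LMNB1, a nuclear lamina gene (r = 0.86, rho = 0.79), ATAD2, a chromatin factor (0.83 and 0.84), PCLAF, a PCNA-associated factor (0.83 and 0.76), KIF15, a spindle motor (0.83 and 0.77), and ASF1B, a histone chaperone (0.82 and 0.78). SOX11, a transcription factor of immature neurons, was among them (0.86 and 0.79). At the other end stood NEUROD2, a transcription factor of maturing neurons (-0.84 and -0.78), and SYNGR3, a synaptic vesicle gene (-0.81 and -0.86). AGFG2, GAS6 and F8 lay at a similar r (-0.82, -0.81 and -0.80). Genes of neurons went both ways: NEUROD4 was among the 100 with the highest r (0.77 and 0.78), and NEUROD1 of the postmitotic granule cell list had r = 0.32 (rho = 0.28).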
